A study of Mus musculus with 14 samples.

Results

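Hair follicle stem cells that lack the transcription factor Irx5 were compared with wild-type stem cells in 4 RNA-seq libraries of 20-day-old mice, out of 14 libraries in the series. The 4 are the Irx5KO libraries numbered 1 and 2 and the WT libraries numbered 1 and 2. They were chosen by title and by a 6-digit code in the deposited data, read here as a date, which all 4 share. The other 4 libraries of this age, labelled Irx5KO 3 and 4 and WT 3 and 4, carry an earlier code, and the remaining 6 come from 18-day-old mice. What the code dates (sort, library or sequencing) is not given in the sources used here. Of 34049 genes with any count in the series, 11622 had at least 5 CPM (counts scaled to a library of 1000000) in at least 2 of the 4 libraries and were analysed.

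Cells came from trypsin-digested back skin and were sorted as positive for CD34 and for a marker spelled CD45f in the labels, and negative for Ly-6A/E. All groups share this sort. The labels give genotype and age, with no other allele or agent, and do not give the strain, the sex, the part of Irx5 that is removed, the cell type in which it is removed, or whether animals were pooled. The labels do not say how many animals each library holds. Within each genotype libraries 1 and 2 differ in Y-linked expression (values below), so they are not repeats of the same RNA, and the spread behind every p-value includes that difference. The series title ties IRX5 to DNA damage repair and to activation of these stem cells, and the comparison bears on both.

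Hair follicle stem cells reside in the bulge of the outer root sheath and stay out of the cell cycle through most of the resting phase of the hair cycle. At the start of hair growth, cells of the hair germ next to the dermal papilla divide first and bulge cells follow. Hedgehog and Wnt signals are known to favour this activation, while BMP and FGF18 signals are known to hold it back. Dividing cells copy their DNA with the MCM helicase and polymerases, package it with newly made histones, and repair broken forks by homologous recombination with BRCA1.

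Irx5 itself was at 29.9 and 17.96 CPM in Irx5KO 1 and 2 and at 108 and 91.9 CPM in WT 1 and 2, after scaling between libraries. The date was chosen because Irx5 is low in the Irx5KO libraries here, so this is a description and the whole comparison is conditional on it. On the earlier date Irx5 goes against the labels: scaled by raw totals, the pair labelled Irx5KO 3 and 4 had 197 and 175 CPM and the pair labelled WT 3 and 4 had 31.2 and 37.2 CPM. Irx3, the neighbouring family member, was at 91.7 and 107.7 CPM in Irx5KO and 101.3 and 75.8 CPM in WT, and the genotypes overlapped.

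Depth ranged from 23191993 to 40608608 counts assigned to genes, lowest in WT 2. WT 2 stood apart from the other 3 libraries. It had counts in 29281 genes against 21406 to 23785, gave 2.37% of its counts to 1740 olfactory and vomeronasal receptor genes against 0.336% to 0.604%, and correlated with the others at a Pearson r over genes of 0.852 to 0.866. The SD over genes of the log2 ratio was 1.03 between the WT libraries, 0.578 between the Irx5KO libraries and 0.682 between the genotype means. Ddx3y, a Y-linked gene, was at 0.338 and 0.123 CPM in the libraries numbered 1 and at 64.1 and 58.6 CPM in those numbered 2, so each genotype holds 1 library of each kind.

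The direct test of these 4 libraries passed no gene. With edgeR's quasi-likelihood test and Benjamini-Hochberg adjustment over 11622 genes, 0 genes (0.0%) had an adjusted p under 0.05, and the smallest adjusted p was 0.0706. At an unadjusted p under 0.05, 570 genes (4.9%) were lower and 477 genes (4.1%) were higher in Irx5KO. Both Irx5KO libraries lay below both WT libraries for 2404 genes (20.7%) and above both for 2371 genes (20.4%). With 2 libraries against 2, such a lack of overlap has a 2-sided exact permutation p of 0.333. In a single gene it is therefore little evidence. An alternative that fits all 8 libraries of this age, so that the 4 groups by date and genotype share 1 estimate of the spread, tested 12430 genes. Between the same 4 libraries it called 144 genes lower (1.16%), Irx5 included, and 24 genes higher (0.193%) at an adjusted p under 0.05. With DESeq2 on the 4 libraries alone, 249 genes were lower and 183 higher. Below, "called" refers to the 8-library fit, and every adjusted p is from it unless the 4-library test is named. Log2 differences (Irx5KO minus WT) and their SE are from the 4 libraries. Giving genes by the 8-library calls was decided after the values were seen. The calls rest on few libraries. Without Irx5KO 2, 1 of the 144 lower genes and 0 of the 24 higher genes were called again, and without Irx5KO 1, 18 and 0. Without WT 1, 117 and 8 were called again, and without WT 2, 85 and 4. With the replicate number as a block, which here also separates low from high Ddx3y, 97 and 10 were called again. In each of these fits all 144 and all 24 kept their sign. That was close to fixed beforehand, since no called gene kept in the 4 libraries (143 lower, 24 higher) overlapped between genotypes. Kept signs, and a lack of overlap in a called gene, therefore add no support to the calls.

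**Figure D1:**
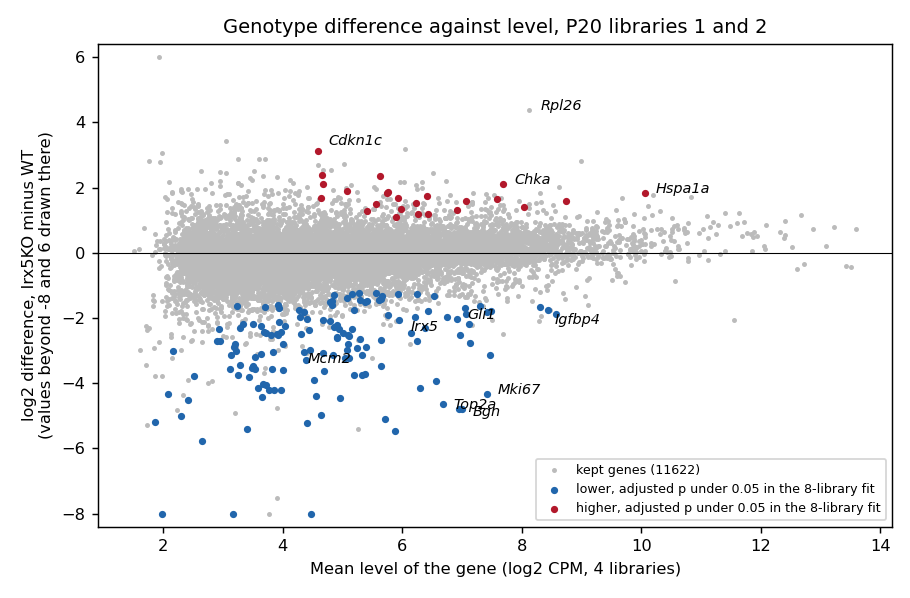
Each point is 1 of 11622 genes, with its mean level over the 4 libraries on the horizontal axis (log2 CPM) and its log2 difference, Irx5KO minus WT, on the vertical axis; colours mark the genes called in the 8-library fit. Called genes that are lower, such as Bgn, Mki67 and Top2a, reach differences beyond -4, while those that are higher, such as Cdkn1c and Chka, stay at or under about 3.13.

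Genes of the cell division cycle were the main group at lower level in the Irx5KO libraries. Of 41 mitotic regulators, 36 were kept, 34 had a negative difference, 32 lay below both WT libraries and 19 were called lower. Their median log2 difference was -2.39, against -0.05 over all genes tested (6246 of 11622 negative). Against WT 1 alone the median was -2.50 and against WT 2 alone -1.96. A gene low in Irx5KO passes the filter only through the WT libraries (350 kept genes were under 5 CPM in both Irx5KO libraries and 78 in both WT libraries), so these list counts describe the libraries and are no test of the lists.

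Mki67, the proliferation antigen Ki-67 that coats mitotic chromosomes, was at 18.4 and 14.3 CPM in Irx5KO and at 430.4 and 223.8 CPM in WT. Every WT value was more than 10 times every Irx5KO value. The log2 difference was -4.32 (SE 0.46, adjusted p = 0.0109; 0.0996 in the 4-library test). Top2a, the topoisomerase that untangles sister chromosomes, was at 9.75 and 6.09 against 254.9 and 139.3 CPM, with a log2 difference of -4.64 (SE 0.48, adjusted p = 0.00238). Prc1, which bundles microtubules of the central spindle, was at 7.05 and 5.74 against 71.6 and 48.1 CPM, a log2 difference of -3.23 (SE 0.35, adjusted p = 0.00238). For each of these genes the groups did not overlap. Pbk, a mitotic kinase, was near the lower limit of detection in Irx5KO, with 8 and 7 counts against 467 and 321.

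Spindle and checkpoint genes were mostly negative as well. Of 26 spindle motors and assembly factors, 23 had a negative difference and 11 were called lower, with a median of -2.26. Kif11, the motor that separates the spindle poles, was at 1.98 and 2.57 CPM in Irx5KO and 27.3 and 14.5 CPM in WT (log2 difference -3.20, SE 0.52, adjusted p = 0.00926). Among 35 kept genes of the kinetochore and spindle checkpoint, 33 were negative and 7 were called, with a median of -1.40. Kntc1, which recruits dynein to kinetochores, was at 0.545 and 0.414 CPM against 21.0 and 20.2 CPM. Bub1b, the checkpoint kinase-like protein BubR1, was at 0.832 and 2.19 CPM against 31.2 and 18.6 CPM. Bub1 had 1 and 0 counts in Irx5KO and 398 and 137 in WT, too few in Irx5KO for a stable ratio. Condensin and cohesin genes were less uniform, since 15 of 21 were negative with a median of -0.26 and 5, among them Top2a and Smc2, were called (3 without WT 2).

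Replication genes were also mostly negative, with a smaller median. Of 48 licensing and fork genes, 43 were kept, 41 were negative, 34 lay below both WT libraries and 12 were called lower, with a median of -1.14. Without WT 2, 5 were called. Mcm2, a subunit of the replicative helicase, was at 10.5 and 9.56 CPM in Irx5KO and 69.6 and 78.4 CPM in WT. Its log2 difference was -2.88 (SE 0.28, adjusted p = 0.00213). Uhrf1, which carries DNA methylation through replication, was at 9.35 and 6.98 CPM against 77.7 and 67.2 CPM, and Pole, the leading-strand polymerase, at 6.48 and 5.50 against 38.2 and 28.6 CPM. Both genes were called and neither overlapped. Of 27 nucleotide synthesis genes 22 were negative and 2 were called, Dut and Rrm1, neither of them without WT 2. Dut, which removes dUTP, was at 7.91 and 10.3 CPM against 27.2 and 36.9 CPM.

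Replication-dependent histones had the lowest median of the lists examined. All 26 kept of 28 were negative, 25 lay below both WT libraries and 13 were called, with a median of -3.0. Over the whole set of 144 lower genes, 30 were clustered histone genes. Hist1h1b, a linker histone, was at 2.93 and 2.54 CPM in Irx5KO and 70.9 and 47.8 CPM in WT (log2 difference -4.44, SE 0.36, adjusted p = 0.00213; 0.0706 in the 4-library test). Core histone genes are near-identical copies, so reads can be split among them and a single one is uncertain.

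G1 regulators had 20 of 24 negative, a median of -0.74 and 3 called, with 0 called without WT 2. Ccnd2, the cyclin that starts G1, was at 39.1 and 38.6 CPM against 115.6 and 150.7 CPM in WT. Cdk4, its kinase partner, was at 30.6 and 26.0 CPM against 61.3 and 71.1 CPM. Both were 2 to 4 times higher in each WT library than in the Irx5KO libraries. Cdkn1c, which encodes the cyclin-dependent kinase inhibitor p57, had the opposite pattern. It was at 38.1 and 48.0 CPM in Irx5KO and 3.80 and 6.05 CPM in WT, with no overlap and a log2 difference of 3.13 (SE 0.38, adjusted p = 0.0108; 0.105 in the 4-library test). Cdkn1a, the inhibitor p21, was at 417.1 and 384.9 CPM against 204.4 and 105.0 CPM and was not called (adjusted p = 0.193).

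**Figure D2:**
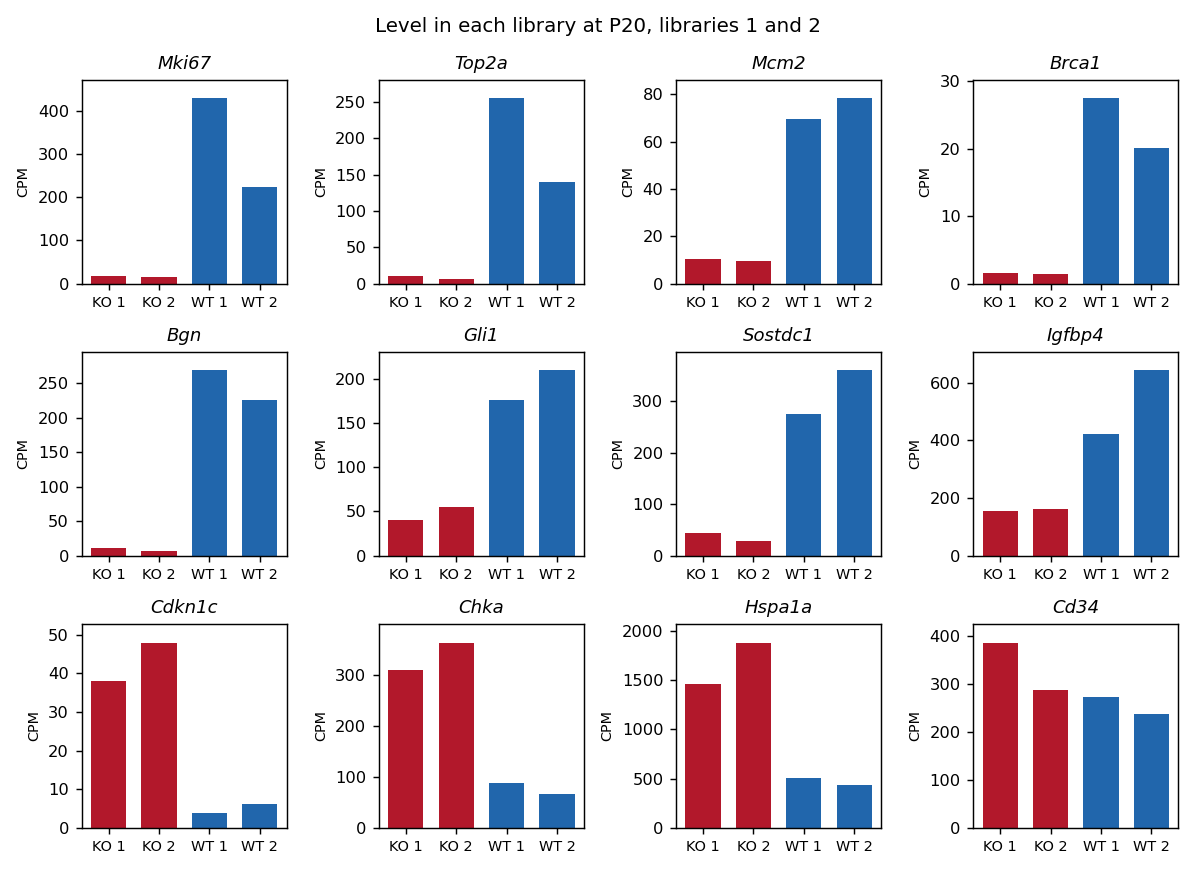
Bars give the level of 12 genes (CPM after scaling) in each of the 4 libraries, Irx5KO in red and WT in blue, on axes that start at 0. Division genes (Mki67, Top2a, Mcm2, Brca1) and the genes of the middle row are low in both Irx5KO libraries, Cdkn1c, Chka and Hspa1a are high in both, and Cd34 lies between 237.4 and 385.4 in all 4.

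Promoters of some of these genes are shown because 2 sequence elements, CCAAT (bound by NF-Y) and the CHR element TTTGAA or TTCGAA, are known from promoters of late cell cycle genes. The windows run from 250 bases before to 50 after the start site in RefSeq (GRCm38.p6), hence the promoter and the first bases of exon 1, on the gene's strand, with matches to either element on either strand in capitals. The genes were picked after their values were seen.
Mki67, chr7:135716330-135716629, minus strand: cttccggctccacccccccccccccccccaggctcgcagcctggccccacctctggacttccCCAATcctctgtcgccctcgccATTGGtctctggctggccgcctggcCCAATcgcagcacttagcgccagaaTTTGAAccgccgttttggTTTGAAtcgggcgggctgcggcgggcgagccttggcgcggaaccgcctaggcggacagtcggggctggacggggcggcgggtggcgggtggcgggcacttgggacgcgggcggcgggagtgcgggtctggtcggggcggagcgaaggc
Top2a, chr11:99024140-99024439, minus strand: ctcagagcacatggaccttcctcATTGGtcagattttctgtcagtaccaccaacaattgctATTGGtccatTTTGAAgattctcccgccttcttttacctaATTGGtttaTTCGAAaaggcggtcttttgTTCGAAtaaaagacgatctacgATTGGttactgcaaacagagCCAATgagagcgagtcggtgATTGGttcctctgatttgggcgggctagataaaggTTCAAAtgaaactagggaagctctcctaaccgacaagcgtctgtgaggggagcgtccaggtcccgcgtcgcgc
Kif11, chr19:37376132-37376431, plus strand: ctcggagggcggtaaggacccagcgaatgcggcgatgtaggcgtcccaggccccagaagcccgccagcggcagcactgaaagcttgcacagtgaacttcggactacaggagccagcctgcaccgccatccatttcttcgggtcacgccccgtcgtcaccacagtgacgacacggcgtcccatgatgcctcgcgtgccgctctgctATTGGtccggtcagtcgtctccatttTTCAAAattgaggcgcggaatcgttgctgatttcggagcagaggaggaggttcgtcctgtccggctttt
Mcm2, chr6:88898731-88899030, minus strand: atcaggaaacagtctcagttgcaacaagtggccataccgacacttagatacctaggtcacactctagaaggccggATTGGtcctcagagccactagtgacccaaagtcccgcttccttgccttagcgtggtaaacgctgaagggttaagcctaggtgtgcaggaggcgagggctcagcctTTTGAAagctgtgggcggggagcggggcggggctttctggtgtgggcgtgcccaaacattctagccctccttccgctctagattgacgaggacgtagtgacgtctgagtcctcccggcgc
Bgn, chrX:73483351-73483650, plus strand: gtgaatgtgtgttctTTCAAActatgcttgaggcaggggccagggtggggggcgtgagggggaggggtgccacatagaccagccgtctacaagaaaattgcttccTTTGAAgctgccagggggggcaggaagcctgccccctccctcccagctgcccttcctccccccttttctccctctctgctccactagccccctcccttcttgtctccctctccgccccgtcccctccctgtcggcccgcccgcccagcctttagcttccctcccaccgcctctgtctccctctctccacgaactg
Top2a held 6 CCAAT and 4 CHR matches and Mki67 held 3 and 2, whereas Kif11 and Mcm2 held 1 of each and Bgn, which is no cell cycle gene, held 0 and 2.

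Across the called genes the CHR letters were common. Of the 114 lower genes that are no clustered histones, 83 had promoters in the RefSeq table (95 windows), and 43.2% of these windows held TTTGAA or TTCGAA, against 13.8% of windows of all genes kept and 19.2% of all 32851 windows in the table. CCAAT was in 50.5%, 37.1% and 37.4% of the same windows. The E2F-type letters TTTCCCGC or TTTGGCGC were in 9.47%, 2.84% and 1.56%. For the 24 higher genes, 17 matched with 20 windows, of which 25.0% held a CHR match and 45.0% a CCAAT match. Letters in a window are a description and not a bound site.

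Counts of DNA repair genes are given by pathway, and whether pathways differ was not tested. Homologous recombination genes were mostly negative, with 21 of 23 kept members negative, 14 below both WT libraries, 4 called and a median of -0.96. That median was -0.57 against WT 1 alone and -0.90 against WT 2 alone. Without WT 2, 14 members passed the filter, 11 were negative and the median was -0.41. A gene under 5 CPM in both Irx5KO libraries cannot pass the filter once WT 2 is left out. Members such as Brca1, Bard1 and Rad54b then drop out, so this smaller median is partly set by the filter. Brca1, which loads the recombinase at broken DNA, was at 1.55 and 1.39 CPM in Irx5KO and 27.5 and 20.1 CPM in WT. Its log2 difference was -4.01 (SE 0.45, adjusted p = 0.00622; 0.105 in the 4-library test). Bard1, its binding partner, was at 1.38 and 2.60 against 13.96 and 11.9 CPM, and Rad54b, a recombination motor, at 0.344 and 0.533 against 12.0 and 8.34 CPM. Both were called. In the Fanconi anaemia pathway, which repairs crosslinks, 9 of 14 were negative and only Fancd2 was called, at 0.373 and 1.18 against 10.9 and 10.3 CPM. The lean of this list differed between the WT libraries. Its median was -0.06 against WT 1 alone and -0.61 against WT 2 alone, and without WT 2, 4 members were negative and 6 positive. The same filter then dropped members such as Fancd2, so these last counts are partly set by it.

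Other repair lists held no called gene. Over all genes tested 6246 of 11622 were negative, and 1.16% of genes in the 8-library fit were called lower. Counts near those shares say little about a list. In non-homologous end joining, 8 of 13 were negative with a median of -0.30 and 0 called. Xrcc6 and Xrcc5, the Ku subunits that cap broken ends, had log2 differences of -0.57 (SE 0.38) and -0.45 (SE 0.30). Mismatch and excision repair had 19 of 32 negative with a median of -0.13, and damage checkpoint genes 10 of 17 negative with a median of -0.21, each with 0 called. Against WT 1 alone these 3 medians were -0.12, 0.05 and -0.07. Parp1, which senses strand breaks, was at 37.3 and 37.0 CPM against 63.4 and 67.7 CPM (adjusted p = 0.123). The p53 targets leaned the other way, with 18 of 29 positive, a median of 0.15 and 1 called higher (0 without WT 2). That gene, Gadd45g, was at 60.1 and 79.7 CPM against 23.3 and 26.3 CPM in WT. Brca1 and Bard1 are known to be expressed mainly in cycling cells, and whether repair genes differ apart from the division genes was not tested.

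The estimated log2 differences of the 6 bulge markers given here were at most 0.40. With SE of 0.30 to 0.35, larger differences are not excluded. Cd34, the surface marker of the sort, was at 385.4 and 287.4 CPM in Irx5KO and 272.9 and 237.4 CPM in WT (log2 difference 0.40, SE 0.31). Krt15, a bulge keratin, was at 9505 and 9248 CPM against 6503 and 9875 CPM, a log2 difference of 0.20 (SE 0.35). Sox9, Lhx2 and Nfatc1, transcription factors of bulge cells, differed by 0.28 (SE 0.35), 0.19 (SE 0.30) and 0.02 (SE 0.31). Lgr5, a marker of the lower bulge and hair germ, differed by 0.09 (SE 0.34). None of these 6 genes was called, and the sign of Krt15, Lhx2, Nfatc1 and Lgr5 changed with the scaling or with a library left out. These markers were present in every library, and Ly6a, the gene of the antigen sorted against, stayed between 0.0 and 1.84 CPM.

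**Figure D3:**
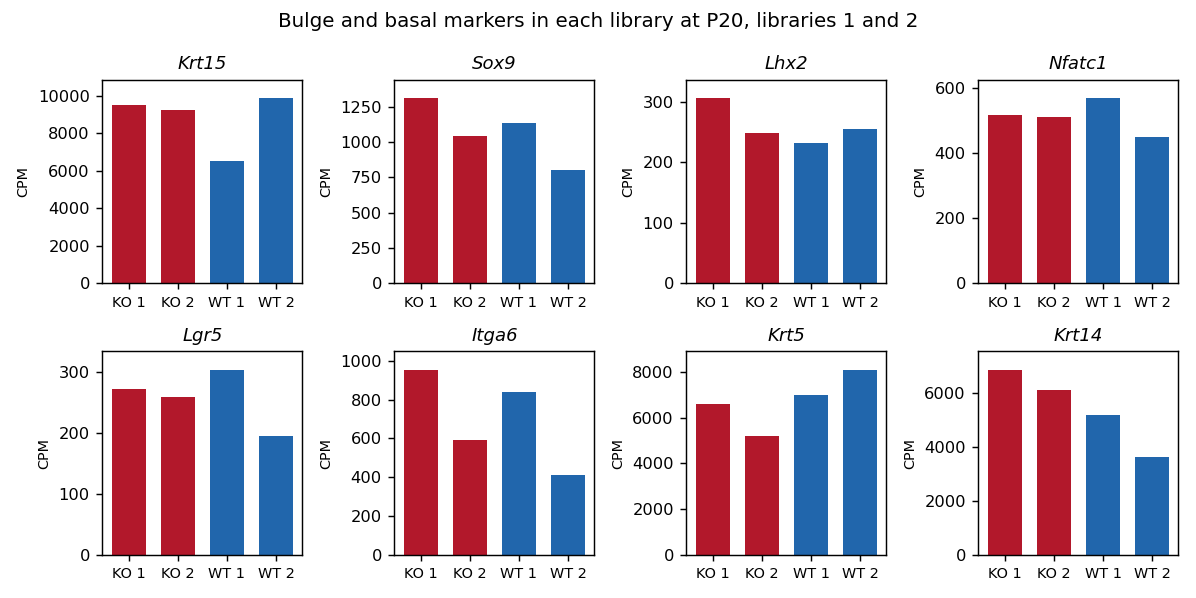
Bars give 8 bulge and basal keratinocyte markers (CPM after scaling) in each of the 4 libraries, Irx5KO in red and WT in blue, on axes that start at 0. All are present in all 4 libraries; Krt14 is higher and Krt5 lower in both Irx5KO libraries, by log2 differences of 0.56 and -0.35.

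The wider list of 30 bulge markers had a median of 0.19 and 2 members called lower (1 without WT 2). Itgb6, an epithelial integrin subunit that activates latent TGF-beta, was at 29.3 and 27.3 CPM in Irx5KO and 153.3 and 123.8 CPM in WT (log2 difference -2.29, SE 0.29, adjusted p = 0.0035). Sfrp1, a secreted Wnt inhibitor, was at 191.1 and 134.2 CPM against 548.1 and 646.4 CPM. Angptl7, a secreted bulge factor, leaned the other way at 488 and 1300.0 CPM against 96.3 and 160.6 CPM, and was not called (adjusted p = 0.166). Of the 30 markers, 10 lay above and 6 below both WT libraries.

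Targets of Hedgehog signalling were among the genes called lower. The Hedgehog list held 17 kept genes, of which 13 were negative, 11 lay below both WT libraries and 5 were called, among them Gli1, Ptch1, Hhip and Sostdc1. Its median was -0.23. Gli1, the transcription factor that Hedgehog signalling induces, was at 40.4 and 55.0 CPM in Irx5KO and 176.4 and 209.5 CPM in WT. Every WT value was over 3 times every Irx5KO value, with a log2 difference of -2.02 (SE 0.31, adjusted p = 0.011; 0.131 in the 4-library test). The receptor Ptch1, itself a target, was at 51.2 and 62.9 CPM against 171.0 and 251.7 CPM. Hhip, a decoy that binds the ligand, was at 3.93 and 5.15 against 12.3 and 16.1 CPM. Without WT 2, 1 of the 5 Hedgehog list members was called.

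Genes of the hair germ and of growth factor control were lower in part. Lists can share genes, and Ptch1, counted above for Hedgehog, is also in the hair germ list. Sostdc1, a secreted Wnt and BMP inhibitor, was at 43.6 and 28.7 CPM in Irx5KO and 274.7 and 360.2 CPM in WT (log2 difference -3.13, SE 0.37, adjusted p = 0.0376). Igfbp5 and Igfbp4 bind insulin-like growth factors. Igfbp5 was at 49.6 and 22.2 CPM against 293.6 and 196.4 CPM, and Igfbp4 at 154.1 and 162.7 CPM against 421.8 and 643.3 CPM. Both were called and did not overlap. Over the 21 kept hair germ and growth-phase genes, 13 were negative and 3 were called, with a median of -0.27. The median was -0.17 against WT 1 alone and 0.03 against WT 2 alone, and without WT 2, 0 of them were called. Lgr6, a receptor that strengthens Wnt signals, was at 79.8 and 73.2 CPM against 253.1 and 222.6 CPM, the 1 gene called of 27 Wnt genes (0 without WT 2).

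Bgn had the smallest adjusted p among the genes named here that are not of the cell cycle. It encodes biglycan, a proteoglycan of the extracellular matrix, on chromosome X at 73483602 to 73495933. It was at 10.5 and 7.31 CPM in Irx5KO and 268.6 and 225.6 CPM in WT. The log2 difference was -4.80 (SE 0.36, adjusted p = 0.00139; 0.0706 in the 4-library test). Col5a1, a fibrillar collagen chain, was at 44.2 and 29.9 CPM against 263.1 and 161.0 CPM. The matrix list as a whole did not share this direction, since 9 of 23 genes were negative and its median was 0.29. Mmp2, a matrix protease, was at 275.8 and 250.6 CPM in Irx5KO against 99.1 and 50.8 CPM in WT and was not called.

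Bgn is also a fibroblast gene, so the markers of fibroblasts and dermal papilla are set beside it. Of 15 markers, 8 were kept, 7 of these were negative and 1 was called (Hhip, also in the Hedgehog list), with a median of -1.15. Against WT 1 alone their median was -0.35 and against WT 2 alone -1.24. Their summed level was 332 and 252 CPM in Irx5KO and 401 and 1030.0 CPM in WT, highest in WT 2. The members did not all rank the WT libraries alike. Col1a1, a collagen chain, was at 71.0 and 13.5 CPM in Irx5KO and 167.5 and 68.1 CPM in WT. Like Bgn it was not higher in WT 2 than in WT 1, whereas Hhip was. Between 0 and 2 of the 15 were at 0 in a library. The part of these cells in the result was not tested, and in bulk RNA fewer cells of a type and less RNA per cell cannot be told apart.

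Of the 144 lower genes, 52 were in no list. Crispld1 and Pi15, secreted proteins of the CAP family, were at 9.78 and 10.7 CPM against 51.8 and 51.0 CPM and at 17.95 and 22.8 CPM against 112 and 152.1 CPM. Synpo, an actin-binding protein, was at 10.3 and 9.56 CPM against 48.7 and 60.0 CPM. C1qtnf1, a secreted C1q-like protein, was at 7.40 and 9.73 CPM against 44.0 and 75.4 CPM. Atp6v1b1, a proton pump subunit, was at 1.46 and 0.799 CPM against 21.4 and 26.8 CPM. Adjusted p-values of these 5 genes ran from 0.00642 to 0.0158. The genotypes did not overlap in them, as in every called gene kept in the 4 libraries.

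Fewer genes were called higher, and 4 of the 24 were in a list. Besides Cdkn1c, they included Chka, which starts phosphatidylcholine synthesis, at 308.8 and 363.3 CPM in Irx5KO and 88.4 and 65.9 CPM in WT. Its log2 difference was 2.12 (SE 0.32, adjusted p = 0.011). Rnf227, a RING-finger protein, was at 79.3 and 86.3 CPM against 18.5 and 13.7 CPM (log2 difference 2.36, SE 0.30, adjusted p = 0.0169). Dab2, an endocytic adaptor, was at 48.0 and 34.8 CPM against 9.49 and 9.78 CPM, and Rbm38, an RNA-binding protein, at 29.9 and 54.4 CPM against 8.91 and 7.33 CPM. In these 4 genes each Irx5KO library was over 3 times each WT library.

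Other genes called higher had varied roles. Hspa1a, an inducible heat shock protein, was at 1461 and 1882 CPM against 501.8 and 432.3 CPM, and Hspa2, a relative, at 119.4 and 143.5 CPM against 41.8 and 36.3 CPM. Dusp4, a phosphatase that ERK signalling induces, was at 39.6 and 36.6 CPM against 13.5 and 10.3 CPM. Maff, a small Maf transcription factor, was at 668.6 and 620.0 CPM against 227.4 and 202.7 CPM, and Sirt1, a protein deacetylase, at 256.9 and 328.9 against 103.6 and 83.8 CPM. Plat, the tissue plasminogen activator, was at 97.0 and 72.9 CPM against 27.0 and 19.9 CPM. All 6 were called, with adjusted p-values from 0.011 to 0.0494. The list of unfolded protein and heat shock genes did not share the direction of Hspa1a, its 1 called member. Of its 30 kept genes 17 were negative, 11 lay below and 9 above both WT libraries, and the median was -0.13 (-0.35 against WT 1 alone and 0.13 against WT 2 alone).

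Among the immediate early and dissociation genes, which are induced by handling of tissue as well as by signals, 26 of 29 were positive and 17 lay above both WT libraries. Their median was 0.51 and 1 was called (0 without WT 2), a gene that another list also holds. Heat shock genes are in this list too. Hspa1b was at 2618 and 2938 CPM in Irx5KO against 934.4 and 769.7 CPM in WT and was not called (adjusted p = 0.169). Socs3, an inhibitor of cytokine signalling, was at 1116 and 1376 CPM against 321 and 464.5 CPM (adjusted p = 0.0723). Whether the sort or its duration differed between libraries is not given, and its part in the result was not tested.

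Signalling lists that leaned higher gave few calls, and without WT 2 they gave 0. The Notch list had 13 of 17 positive, 9 above both WT libraries, a median of 0.70 and 0 called. Dll1, a Notch ligand, was at 46.4 and 50.7 CPM against 19.1 and 15.3 CPM (adjusted p = 0.264). The FGF and ERK list had 16 of 19 positive, a median of 0.68 and Dusp4 called. Spry1, an ERK feedback inhibitor, was at 47.1 and 53.8 CPM against 15.1 and 21.0 CPM, and Fgf18, which holds stem cells at rest, at 26.4 and 13.5 against 3.55 and 7.92 CPM. Neither was called (adjusted p = 0.203 and 0.407), and neither overlapped. In the BMP list 13 of 23 were positive with a median of 0.33, and Gdf10, a BMP-family ligand, was called lower at 8.03 and 9.11 CPM against 42.7 and 59.9 CPM. Id1 and Id3, direct BMP targets, were at 154.3 and 167.2 against 41.2 and 66.0 CPM and at 205.5 and 242.9 against 96.9 and 135.0 CPM, neither called.

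Imprinted growth genes were positive for 10 of 11, with a median of 1.06 that was 0.66 against WT 1 alone and 1.57 against WT 2 alone. Dlk1, a Notch-like surface protein, was at 28.4 and 13.96 CPM against 3.50 and 4.77 CPM, and Peg10 at 23.5 and 35.7 against 9.24 and 8.27 CPM. Their adjusted p-values were 0.0783 and 0.0829, and Cdkn1c was the 1 member called.

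Metabolic lists showed small shifts. Of 44 oxidative phosphorylation genes, 36 were negative and 30 lay below both WT libraries, with a median of -0.41 and 0 called. Cox5b, a cytochrome oxidase subunit, was at 34.0 and 29.0 CPM against 74.6 and 46.5 CPM. Cholesterol synthesis had 20 of 23 negative, a median of -0.61 and 0 called. That median was -0.83 against WT 1 alone and -0.27 against WT 2 alone. Cytosolic ribosomal proteins were level, with 21 of 43 negative and a median of 0.00. Rpl26 stood apart in that list, at 525.6 and 543.6 CPM in Irx5KO and 28.4 and 22.9 CPM in WT. It was not called (adjusted p = 0.0744; 0.0706 in the 4-library test, the smallest value there). The pair labelled WT 3 and 4 had 83.7 and 546 CPM at raw totals. Ribosomal protein genes have near-identical copies among which reads can be split, so the level of Rpl26 is uncertain.

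**Figure D4:**
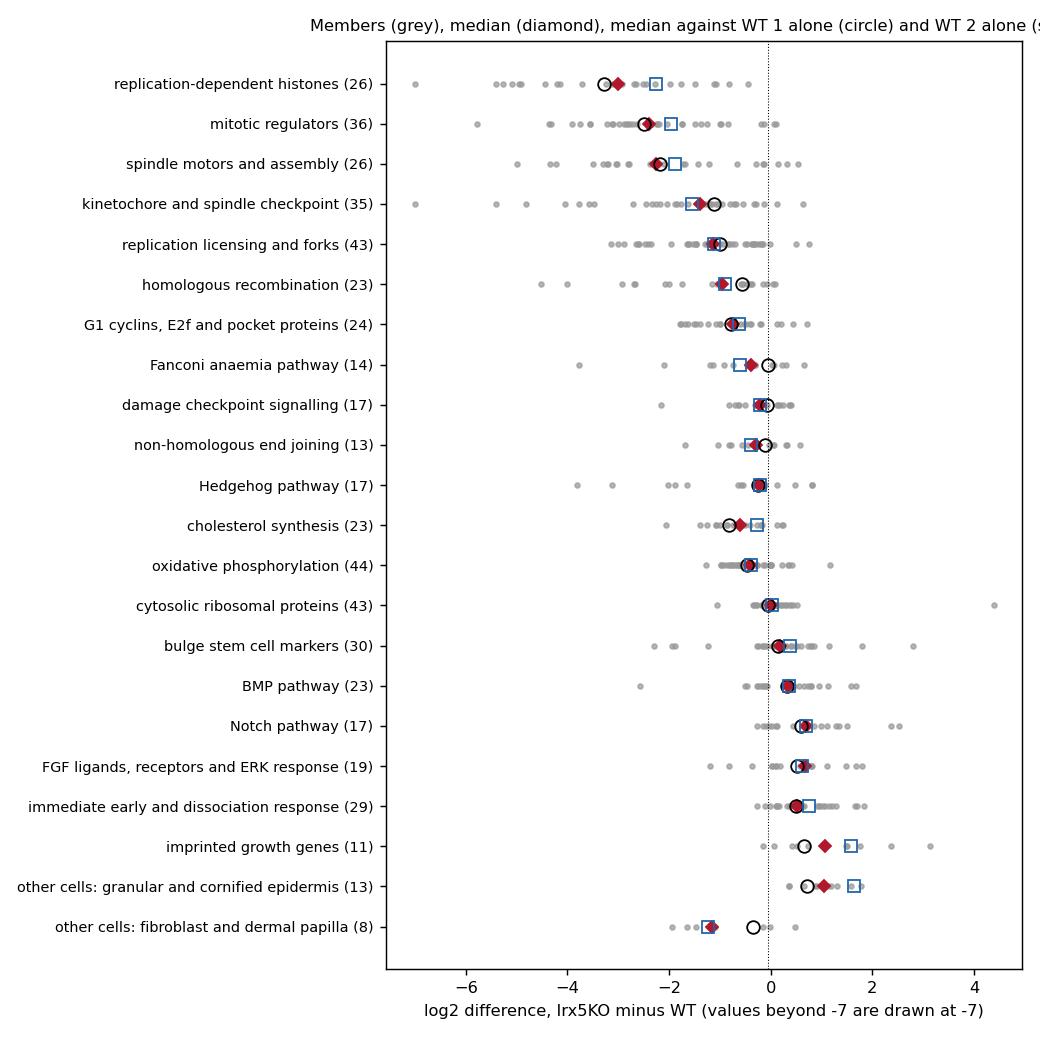
Each row is 1 gene list with its number of kept genes; grey points are member genes by log2 difference, Irx5KO minus WT, the diamond is their median, the circle and square are the medians against WT 1 alone and WT 2 alone, and the dotted line is the median of all genes tested (-0.05). Division lists lie to the left against either WT library, while the fibroblast list moves from -0.35 to -1.24 between them.

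Markers of differentiated epidermis were not level either. All 13 kept of 20 granular and cornified markers were positive, with a median of 1.04 and 0 called. Their summed level was 4110 and 1560 CPM in Irx5KO and 1480 and 888 CPM in WT, highest in Irx5KO 1. Suprabasal markers summed to 15600 and 7160 CPM against 8050 and 5810 CPM. In each library 0 to 2 granular markers were at 0. In the first sum Irx5KO 2 and WT 1 were close, and in the second they overlapped. Their part in the other results was not tested. Ptprc, the pan-leukocyte marker, stayed between 2.05 and 10.2 CPM, highest in WT 2.

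On the earlier date the same labels gave the opposite picture. The difference of the 2 differences by label, tested in the 8 libraries, passed for 720 genes in the negative direction (5.79%) and for 543 in the positive direction (4.37%). Of the 144 genes lower here, all 144 were higher in the libraries labelled Irx5KO 3 and 4 than in those labelled WT 3 and 4, 135 of them past the threshold. Of the 24 genes higher here, 23 had the opposite sign there, 18 past the threshold. The test of the difference passed for 144 and 23 of them. These genes were picked by the later-date difference, which is part of the difference tested. Passing was therefore made likely beforehand and adds no support. The share of all genes past the threshold on the earlier date is not given here. Because Irx5 goes against the labels on that date, no direction by genotype is drawn from it.

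By level, the division genes of WT 1 and 2 lay between the earlier-date extremes. Mki67 was at 415 and 249 CPM in WT 1 and 2 at raw totals, at 1370.0 and 1460.0 CPM for the pair labelled Irx5KO 3 and 4, and at 9.89 and 3.72 CPM for the pair labelled WT 3 and 4. In the 6 libraries of 18-day-old mice it ranged from 13.6 to 39.1 CPM. Bgn followed the same order, at 259 and 251 CPM, 395 and 477 CPM, and 9.23 and 15.4 CPM, with 12.1 to 28.8 CPM at the younger age. Cdkn1c was at 34.5 and 45.8 CPM in Irx5KO 1 and 2 and at 27.7 and 42.3 CPM for the pair labelled WT 3 and 4, but at 3.67 to 6.73 CPM in the other 4 libraries of this age. At the younger age it ranged from 9.96 to 19.9 CPM. Over the 8 libraries of this age, those with low Mki67 were the 4 with low Irx5 (17.2 to 37.2 CPM). Those with high Mki67 were the 4 with high Irx5 (102 to 197 CPM). The later date was chosen by Irx5, so this match is a description, and no direction by genotype is drawn from it. The match did not hold at the younger age. The WT libraries of that age had Irx5 at 102 to 135 CPM, with Mki67 at no more than 39.1 CPM. Whether the levels of Irx5 and Mki67 are tied was not tested.

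**Figure D5:**
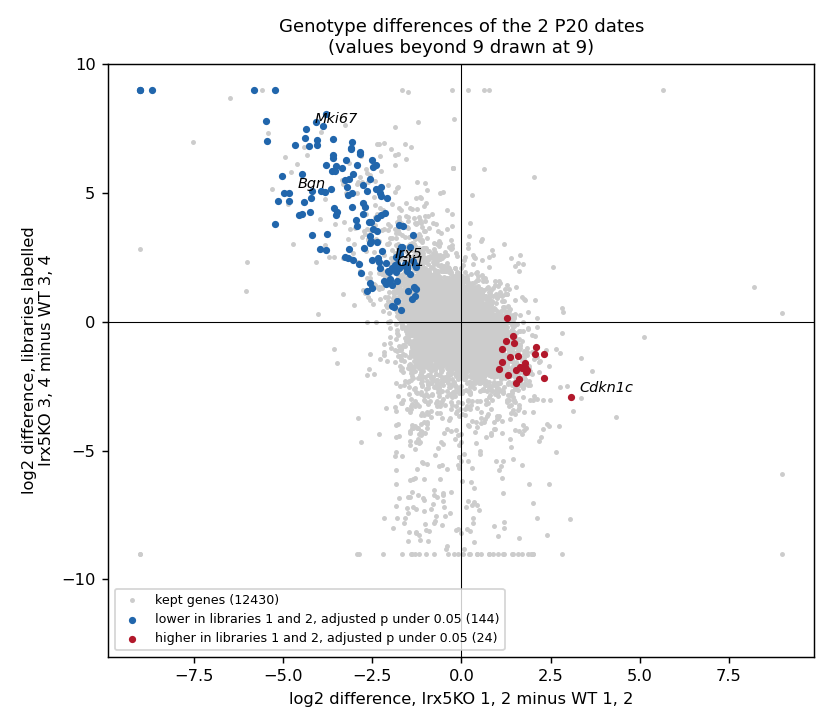
Each point is 1 of 12430 genes, with the log2 difference between Irx5KO 1 and 2 and WT 1 and 2 on the horizontal axis and that between the libraries labelled Irx5KO 3 and 4 and WT 3 and 4 on the vertical axis. The 144 genes called lower lie in the upper left and 23 of the 24 called higher in the lower right, so their signs are opposite on the 2 dates.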

How the data were processed

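RNA of sorted cells was sequenced single-end. Per the labels' protocols, the authors ran kallisto 0.46.2 on transcripts. The submitters' processing notes name mm10. The deposited files give estimated counts and TPM per transcript. Estimated counts of the 116816 of 118489 transcripts matched to GENCODE vM21 were summed to genes and rounded. The deposited TPM and effective lengths served only for length-scaled counts. Use of strand is not given in the sources used here, so antisense partners cannot be told apart.

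Genes with 5 CPM in 2 libraries were tested with edgeR 4.0.16 (R 4.3.3), TMM scaling and an adjusted p of 0.05. SE is the log2 difference divided by the square root of F. DESeq2 1.42.0 and limma 3.58.1 (voom) were alternatives. The tests were tried on simulated data. No file column went unmatched. Totals of 23191993 to 40608608 counts limit low genes, and chi-square values per degree of freedom of 127 (Irx5KO) and 375 (WT) are above sampling noise. The libraries and the 58 gene lists (1348 of 1355 symbols matched) were chosen with earlier results of these data known. Named genes are a fixed set, the 4 smallest p of each list, and the largest or smallest-p calls. As the planned test called none, the last were taken from the 8-library fit. Provisional gene models are counted, not named. A single gene's result is not reported here.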

Additional observations from a re-analysis of the deposited data

Results flagged for a closer look

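The difference between libraries labelled Irx5KO and libraries labelled WT was not the same on the 2 dates at this age. In the 8-library test 720 genes had a negative and 543 a positive difference of differences (later minus earlier date, log2 scale). Among genes named throughout, it was -11.83 for Mki67, -11.51 for Top2a, -11.08 for Brca1 and -4.02 for Gli1. It was 6.0 for Cdkn1c, 5.73 for Fgf18 and 3.30 for Cdkn1a. The libraries labelled on the earlier date go against their labels in Irx5, which bears on every one of these values. No effect of genotype that depends on the date is drawn from them.

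The largest negative differences, among genes with at least 10 counts in each date and genotype, were -14.51 for Hist1h2ab, -13.28 for Hist1h2af, -12.73 for Hist1h3b, -12.48 for Kntc1, -11.86 for Cenpf, the -11.83 of Mki67, -11.80 for Bub1b and the -11.51 of Top2a. That minimum was set after the values were seen, because differences against a group at 0 are not stable. The largest positive differences were 8.02 for Rpl26, 7.25 for Spock2, 6.78 for Glul, 6.78 for Angptl7, 6.78 for Cyp2b10, 6.71 for Rasl11a, 6.56 for Fam13a and 6.51 for Klf15. Spock2, a matrix proteoglycan, was at 84.2 and 254.5 CPM in Irx5KO 1 and 2 and 47.0 and 56.7 CPM in WT 1 and 2. The groups did not overlap, and it was not called on this date (adjusted p = 0.495).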

How the results depend on the processing

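In the 4-library test, genes lower and higher in Irx5KO numbered 0 and 0 as planned, 0 and 0 with RLE size factors, with length-scaled counts and with the replicate block, 10 and 1 at raw library totals, 186 and 78 with no filter, 1 and 0 at 1 CPM, 39 and 4 with filterByExpr, 249 and 183 with DESeq2, 1 and 1 with voom, 144 and 24 in the fit of 8 libraries and 105 and 16 in that of 14. Leaving out 1 library gave 0 to 1186 lower and 0 to 1093 higher: 0 and 0 without Irx5KO 1 or Irx5KO 2, 1186 and 1093 without WT 1, and 163 and 206 without WT 2, where the lone WT library is assumed to vary like the Irx5KO pair. The filter then drops genes under 5 CPM in both Irx5KO libraries. The cause of the other changes was not tested.

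The 8-library fit, whose own alternatives were chosen after seeing the data, gave 131 and 26 with RLE, 166 and 21 at raw totals, 132 and 13 at 1 CPM, 328 and 206 with DESeq2 and 111 and 22 with the replicate block, of which 97 and 10 were among the 144 and 24. Leaving out 1 library gave 1 to 213 lower and 0 to 55 higher: 21 and 1 without Irx5KO 1, 1 and 0 without Irx5KO 2, 213 and 55 without WT 1, 90 and 5 without WT 2, 89 and 23 without Irx5KO 3, 92 and 23 without Irx5KO 4, 125 and 13 without WT 3, and 123 and 13 without WT 4. In each of these settings all 144 and all 24 genes kept their sign, which the lack of overlap made close to fixed beforehand.

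The difference between dates had 1131 negative and 971 positive genes with DESeq2, and between 550 and 743 negative and between 465 and 636 positive under the other settings, the replicate block (583 and 466) included. Leaving out 1 library gave 365 to 780 and 207 to 648: 435 and 273 without Irx5KO 1, 370 and 219 without Irx5KO 2, 365 and 207 without WT 3, and 469 and 364 without WT 4. Same-numbered libraries deviated together with a correlation over genes of 0.205. They also share the level of Ddx3y, low in both libraries numbered 1 and high in both numbered 2. The labels do not say that a number marks a shared animal or day.

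Of 112 named genes, 107 kept their sign in every setting that tested them. Apart from the fixed set, most were picked by p or by size of difference in these same libraries. Their kept signs were close to fixed beforehand and add no support. The genes that turned, given next, all belong to the fixed set. Krt15 turned to -0.01 at raw totals and ran from -0.10 to 0.53 with 1 library left out. Nfatc1 turned to -0.15 at raw totals, -0.03 at 1 CPM, -0.03 with length-scaled counts and -0.03 in the 8-library fit, and ran from -0.14 to 0.17. Lgr5 turned to -0.06 at raw totals and ran from -0.19 to 0.42, Irx3 from -0.02 to 0.37, and Lhx2 from -0.03 to 0.26. The median over all genes moved from -0.05 to -0.22 at raw totals and to -0.44 with no filter. Depth, lowest in WT 2, limits genes with few counts.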
